A study of Mus musculus with 15 samples.

Results

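Macrophages given heme-albumin at 200 µM were compared directly with macrophages polarized with IL-4. The comparison takes 6 of the 15 libraries of the study, 3 per treatment, chosen by the treatment named in their column, and it covers all genes counted. Marrow cells from femurs and tibias of mice 8 to 10 weeks old were grown for 7 days in RPMI medium with fetal calf serum and M-CSF at 10 ng/ml, the growth factor that turns them into bone marrow derived macrophages. The heme-albumin cultures then received hemin, an oxidized form of heme, bound to human serum albumin, a model, per the labels, of macrophages after the uptake of red blood cells. The IL-4 cultures received interleukin 4 at 10 ng/ml, a state that the labels call M2. Untreated cultures grown in the same way (3 libraries) are given beside both treatments, and no culture given albumin without heme was analysed here. The sources used here give neither strain, sex nor time under treatment. Each replicate number carries the same date in the column names of all groups, so the libraries are paired by date, although what the date marks was not given.

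Levels are in CPM, a gene's count as a share of the scaled library total, as values per library or as mean ± SD (n = 3). Differences are log2 fold changes ± SE, heme-albumin 200 minus IL-4, so a positive value is higher with heme-albumin. The SE was worked back from the test, as the absolute log2 fold change divided by the square root of the F statistic. It is thus an approximate value, and not a standard error taken from the fit itself. A gene was called higher or lower when the quasi-likelihood test of edgeR gave a Benjamini-Hochberg adjusted p under 0.05, and all adjusted p-values are from that test. A gene with no count in 1 group is given by a bound, set at 3 counts over that group, and a gene with 1 to 3 counts by a ratio with its 95% interval. Bounds and intervals cover counting error only. Where a gene list is given with 0 members in a direction between the treatments, an unadjusted p under 0.05 and DESeq2 also gave 0 there. The spread behind the SE and p-values was estimated over all 15 libraries of the study, and without the pairing by date. Among them were libraries given heme-albumin at 400 µM or interferon gamma at 10 ng/ml. This spread is thus not that of the compared libraries or of the date pairs alone. Whether each library had its own mouse or culture is not stated, so part of that spread may be technical.

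Total counts ran from 9819362 to 14329361 with heme-albumin, from 15945686 to 28587416 with IL-4 and from 8427352 to 15252357 in untreated cells. In heme-albumin libraries 16.7 to 19% of the counts fell on the 10 most abundant genes, against 12 to 13.1% with IL-4 and 10.8 to 11.7% in untreated cells. Replicate 2 of the heme-albumin group stood further from replicates 1 and 3 (chi-square per degree of freedom 36 and 22.7) than these from each other (8.52). Calls of named genes that are lost without it are given. Libraries of other treatments that entered the shared fit also varied. Replicate 3 of interferon gamma stood at 135 and 130 from replicates 1 and 2. Replicate 2 of heme-albumin at 400 µM stood at 62.4 and 49 from replicates 1 and 3.

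Heme is toxic to cells when it is free, and macrophages that clear red blood cells break it down with heme oxygenase, store the iron in ferritin and export it through ferroportin. Heme also removes the repressor BACH1 from antioxidant response elements, which the activator NRF2 then occupies, and cells low in iron keep the transferrin receptor mRNA while cells rich in iron destroy it. IL-4 acts through its receptor chains and the kinases bound to them on STAT6, which drives arginase, chitinase-like proteins, lectins and the fusion proteins of giant cells. Both treatments are used as models of macrophages turned away from inflammation, in iron recycling and in tissue repair.

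Of 11883 genes tested, 2002 (16.8%) were higher with heme-albumin than with IL-4 and 1725 (14.5%) were lower, 31.4% in all. Counts of list members between the treatments are to be read beside these shares of 16.8% and 14.5%. By at least 2-fold, 1062 genes (8.94%) were higher and 680 (5.72%) were lower. Without heme-albumin replicate 2, 1649 genes were higher and 1344 lower. In a fit of only the 6 libraries compared, 2451 were higher and 2324 lower. In 3718 of the 3727 called genes, the difference between libraries of the same date had the sign of the fold change at all 3 dates. The genes were called from these same libraries, so this count follows largely from the call and is no independent support. The median log2 fold change over all tested genes was -0.01. Of the called genes, 83 of the higher ones reached at least 500 CPM with heme-albumin, and 78 of the lower ones reached at least 500 CPM with IL-4.

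**Figure D1:**
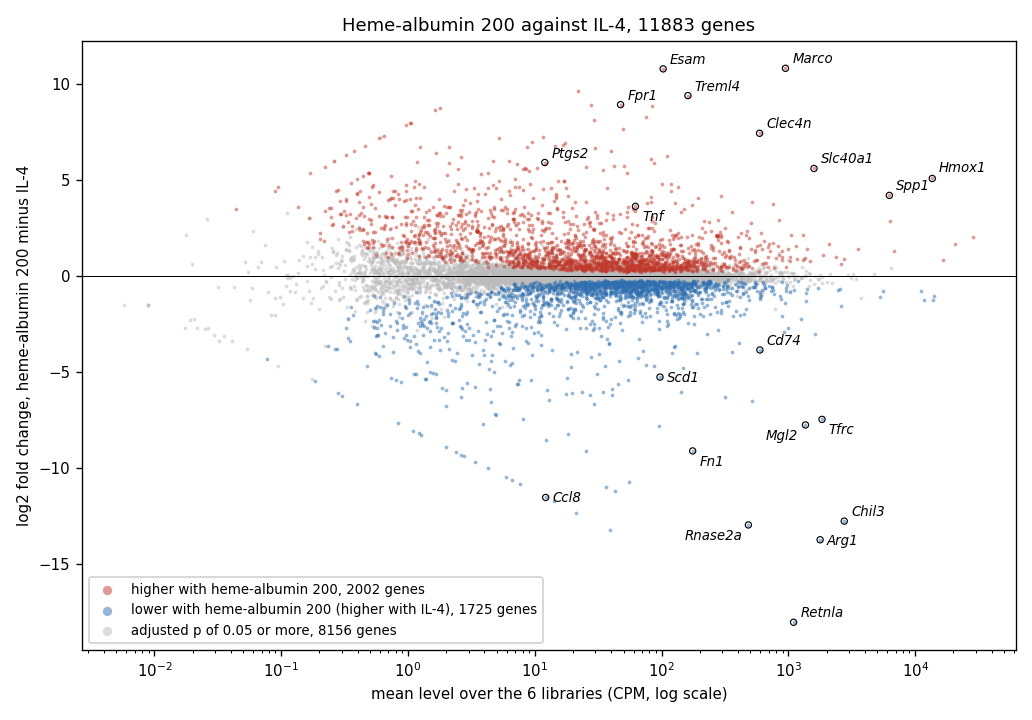
Log2 fold change of heme-albumin 200 minus IL-4 (vertical axis) against the mean level over the 6 libraries in CPM (horizontal axis, log scale) for 11883 genes, with 2002 higher genes in red, 1725 lower genes in blue and the others in grey. The named genes lie far from 0 in both directions, and the fitted values of genes without a count in 1 group, Retnla and Ccl8 among them, depend on the prior count of the fit and are no bounds.

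The labels were checked on Hmox1, Arg1 and Tnf. Hmox1, the inducible heme oxygenase (ENSMUSG00000005413, chromosome 8, 75093621 to 75100589), had 25566, 28875 and 24867 CPM with heme-albumin, against 858, 628 and 867 CPM with IL-4 and 934, 622 and 1045 CPM in untreated cells. It was higher in every heme-albumin library than in any other, and levels with IL-4 lay in the range of untreated cells (5.07 ± 0.30, adjusted p = 5.15e-08). Arg1, the arginase that IL-4 induces (ENSMUSG00000019987, chromosome 10, 24915221 to 24927484), had 0.286, 0.338 and 0.106 CPM with heme-albumin, against 4027, 3649.7 and 2981 CPM with IL-4 and 2.3, 0.787 and 0.752 CPM in untreated cells. The groups did not overlap, and the heme-albumin libraries held 9 counts in all (-13.72 ± 0.71, adjusted p = 1.98e-08). Tnf, the inflammatory cytokine TNF (ENSMUSG00000024401, chromosome 17, 35199381 to 35202007), had 100.3, 118 and 126 CPM with heme-albumin, against 9, 9.06 and 9.87 CPM with IL-4 and 129, 116 and 121 CPM in untreated cells. Here the heme-albumin libraries lay near the untreated ones and the IL-4 libraries stood apart below both (3.62 ± 0.13, adjusted p = 1.22e-09).

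**Figure D2:**
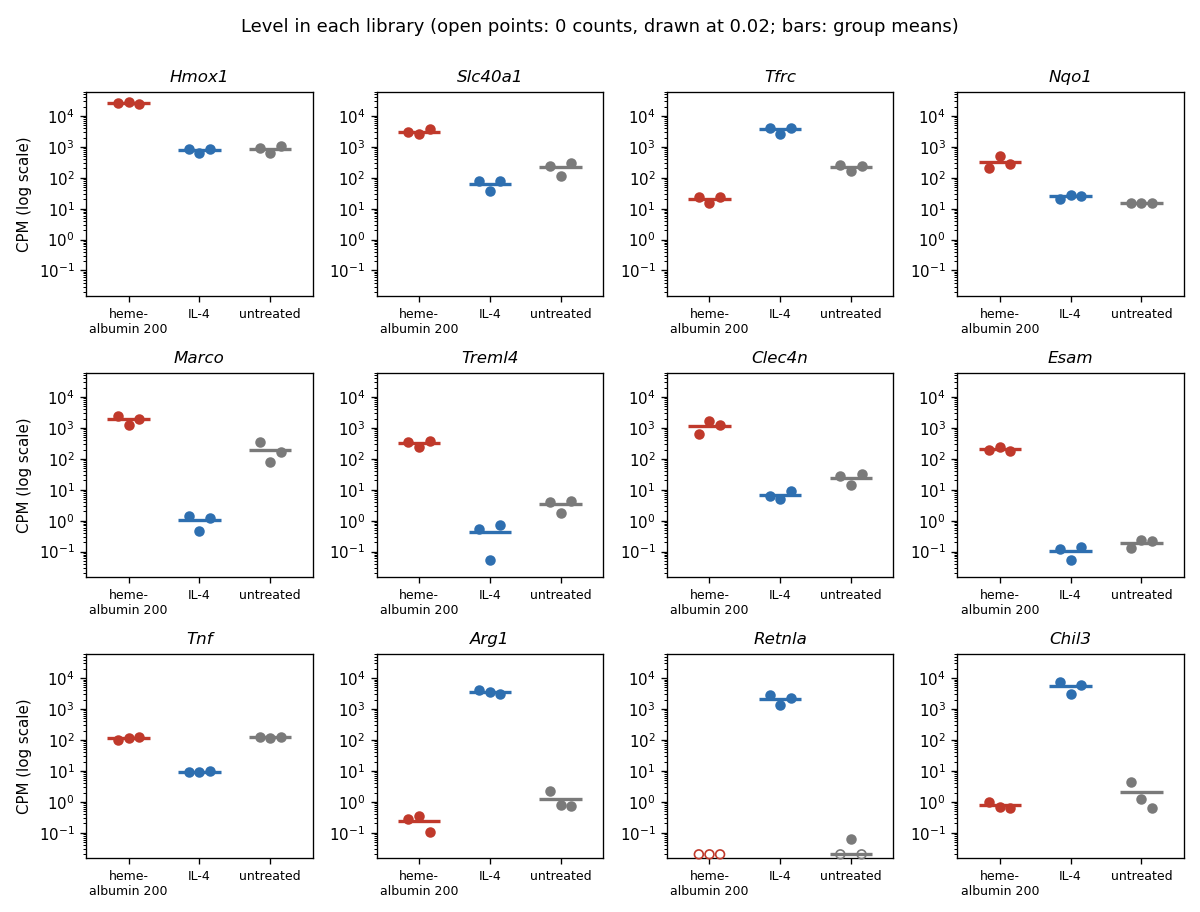
Levels of 12 genes in CPM (vertical axes, log scale) in each library of the heme-albumin 200, IL-4 and untreated groups, with bars for group means and open points for libraries with 0 counts. Hmox1 averages 26436 CPM with heme-albumin against 784 CPM with IL-4, while Arg1, Retnla and Chil3 are high with IL-4 alone of the 3 groups shown and Tnf is low with IL-4.

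The cells carried macrophage markers in both groups. Of 16 core macrophage genes, all were tested, and 6 were higher and 3 lower (16.8% and 14.5% of all genes). The median was 0.14 (0.08 to 0.25 without 1 library). The integrin Itgam (CD11b) had 1525 ± 122 CPM with heme-albumin and 1438 ± 62 CPM with IL-4 and Adgre1 (F4/80) had 1117 ± 162 CPM with heme-albumin and 1011 ± 159.7 CPM with IL-4, and neither passed the test (0.09 ± 0.13 and 0.14 ± 0.27). Csf1r, the M-CSF receptor, had 1890.0 ± 56.8 CPM with heme-albumin and 1083 ± 100.2 CPM with IL-4 (0.80 ± 0.25, adjusted p = 0.0268), a call that was lost without any 1 of the 6 libraries (adjusted p = 0.0543 to 0.0974). Further apart lay Cx3cr1, the fractalkine receptor, with 32.7, 32.7 and 36.8 CPM with heme-albumin, against 0.245, 0.106 and 0.417 CPM with IL-4 and 25.5, 39.5 and 20.2 CPM in untreated cells. Heme-albumin and untreated libraries overlapped and IL-4 libraries lay far below both (6.90 ± 0.55, adjusted p = 8.05e-07, and 7.56 without IL-4 replicate 3). Cx3cr1 was lower with IL-4 than in untreated cells (-6.65 ± 0.55, adjusted p = 1.86e-06), and the LPS co-receptor Cd14 and the actin-binding Aif1 were also lower with IL-4 than with heme-albumin (2.51 ± 0.56, adjusted p = 0.00352 and 3.86 ± 0.48, adjusted p = 3.68e-05). The lysozyme gene Lyz2 had 46053 ± 4741 CPM with heme-albumin, 11345 ± 2709.6 CPM with IL-4 and 28795 ± 2550.5 CPM in untreated cells (2.02 ± 0.32, adjusted p = 0.000265), and the galectin Lgals3 was lower with heme-albumin (-1.11 ± 0.27, adjusted p = 0.00539).

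Markers of other cell types were mostly low. Of 10 neutrophil markers, 5 were tested, 1 was higher and 0 lower, and the 10 summed to 11.2 to 35.2 CPM with heme-albumin, against 2.33 to 51.8 CPM with IL-4. The higher one, Mpo (adjusted p = 0.0435), lost its call without any 1 library other than heme-albumin replicate 3 (adjusted p = 0.0515 to 0.218), and with the block and only the 6 libraries Ltf and S100a9 were lower (adjusted p = 0.0153 and 0.0313). Of 7 T and NK cell markers, 2 were tested, 0 were higher and 1 was lower, Cd2. Cd3e, Cd3g, Nkg7, Gzmb and Ncr1 had 0 counts in both groups. The sum (58.7 to 156 CPM with heme-albumin, against 166 to 186 CPM with IL-4) was nearly all Il7r, the IL-7 receptor, at 92.7 ± 54.1 CPM with heme-albumin and 174 ± 10.2 CPM with IL-4 (-0.91 ± 0.54, adjusted p = 0.225, against -1.50, adjusted p = 0.0774 without heme-albumin replicate 2 and adjusted p = 0.0339 with the block and only the 6 libraries). Of 5 B cell markers, Pax5 had 0 counts in both groups and 1 was higher, Cd79b, a chain of the B cell receptor, at 2.55 ± 0.973 CPM with heme-albumin and 0.385 ± 0.0276 CPM with IL-4 (2.67 ± 0.33, adjusted p = 3.53e-05). The 6 erythroid markers summed to at most 0.572 CPM with heme-albumin and 0.0612 CPM with IL-4, and the 6 mast cell and basophil markers to 0 and 0.49 CPM.

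Of 5 megakaryocyte markers, 3 were tested, 2 were higher and 1 lower, with sums of 425 to 479 CPM with heme-albumin, against 83.7 to 112 CPM with IL-4. Pf4, which macrophages make too, held most of this sum (2.14 ± 0.33, adjusted p = 0.000241). The other higher one, Ppbp (adjusted p = 0.0338), lost its call without heme-albumin replicate 2 or 3 or IL-4 replicate 2 or 3 (adjusted p = 0.056 to 0.139), and the lower one, Gp1bb (adjusted p = 0.0499), lost it without any 1 library, with DESeq2, with upper-quartile scaling and with no filter (adjusted p = 0.0515 to 0.144). The platelet genes Gp9 and Itga2b had 0 and 0.131 ± 0.145 CPM with heme-albumin, against 0 and 0.282 ± 0.113 CPM with IL-4. Of 6 dendritic cell markers, 2 were tested, 0 were higher and 1 was lower, and the 6 summed to at most 0.531 CPM with heme-albumin and 2.57 CPM with IL-4. Of 7 stromal and endothelial markers, 4 were tested, 2 were higher and 2 lower, with sums of 26.2 to 37.9 CPM with heme-albumin, against 16.5 to 29.1 CPM with IL-4. Acta2, a smooth muscle actin, was at 23.1 ± 5.12 CPM with heme-albumin and 2.41 ± 0.593 CPM with IL-4 (3.25 ± 0.32, adjusted p = 4.28e-06), while the fibroblast collagens Col1a1 and Col3a1 stayed under 1 CPM in both groups. The other higher one, Cdh5, lost its call with DESeq2 and without any 1 library other than heme-albumin replicate 3 (adjusted p = 0.05 to 0.0705). The 2 lower ones are not named here. With IL-4, most of the sum lay in markers other than Acta2 and these collagens. The part of other cells in these differences was not tested. In bulk RNA, fewer cells of a type and less RNA per cell cannot be told apart.

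Heme and iron genes went both ways. Of 30 genes for heme breakdown, heme transport and iron handling, 12 were higher with heme-albumin than with IL-4 and 5 lower. Of all genes, 16.8% were higher and 14.5% lower. The median of the list was 0.29 (0.15 to 0.31 without 1 library). Biliverdin reductase B, Blvrb, was higher (1.23 ± 0.23, adjusted p = 0.000889). Biliverdin reductase A, Blvra, at 116 ± 17 CPM with heme-albumin and 141 ± 5.14 CPM with IL-4, did not pass (-0.28 ± 0.12, adjusted p = 0.106, against 0.0488 with the replicate block and only the 6 libraries). The heme transporters Slc48a1 (HRG1), which moves heme out of the phagolysosome, and Abcb6, a porphyrin carrier, were higher (1.40 ± 0.22, adjusted p = 0.000215; 2.11 ± 0.11, adjusted p = 1.9e-08). Hp, the hemoglobin-binding haptoglobin, had 4.79, 16.6 and 6.68 CPM with heme-albumin, against 0.857, 0.053 and 0.313 CPM with IL-4. Heme-albumin libraries were the higher ones, replicate 2 most (4.58 ± 1.37, adjusted p = 0.0207), and the call was lost without that library (3.86, adjusted p = 0.0745) and without IL-4 replicate 2 or 3 (adjusted p = 0.0748 and 0.0777), while without IL-4 replicate 1 the value was 5.47. The hemoglobin receptor Cd163 had 4.92 ± 2.18 CPM with heme-albumin and 5.01 ± 0.368 CPM with IL-4 and did not pass (-0.03 ± 0.42, and 0.30 without heme-albumin replicate 2).

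The iron exporter ferroportin and the transferrin receptor differed in opposite directions. Slc40a1 (ferroportin, ENSMUSG00000025993, chromosome 1, 45908068 to 45926523) had 2938, 2635 and 3768 CPM with heme-albumin, against 78, 36 and 79.2 CPM with IL-4 and 240.2, 115 and 292 CPM in untreated cells. All heme-albumin libraries lay above the untreated ones and all IL-4 libraries below them (5.59 ± 0.47, adjusted p = 1.15e-06). Tfrc, the transferrin receptor (ENSMUSG00000022797, chromosome 16, 32608920 to 32632794), had 23.5, 15.4 and 23.3 CPM with heme-albumin, against 4214, 2667 and 4084 CPM with IL-4 and 256, 161 and 241 CPM in untreated cells. Untreated cells lay between the treatments here too, and the order was turned round (-7.46 ± 0.32, adjusted p = 4e-09). Against untreated cells, Tfrc fell with heme-albumin (-3.40 ± 0.27, adjusted p = 2.93e-06) and rose with IL-4 (4.06 ± 0.27, adjusted p = 3.69e-07). The ferritin chains Fth1 and Ftl1, which store iron and have near-identical copies that make their counts uncertain, were higher with heme-albumin (1.64 ± 0.29, adjusted p = 0.000707 and 0.85 ± 0.23, adjusted p = 0.0108), the call of Ftl1 being lost without heme-albumin replicate 2 (adjusted p = 0.0555). Slc11a1 (NRAMP1), which carries iron out of phagosomes, was higher (1.60 ± 0.19, adjusted p = 2.52e-05), and so was the zinc and iron importer Slc39a14 (1.46 ± 0.14, adjusted p = 4.41e-06).

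Genes of heme synthesis and of iron sensing were mixed. Alas1, the first enzyme of heme synthesis, was lower with heme-albumin (-1.66 ± 0.36, adjusted p = 0.00273), with 64.2 ± 35.1 CPM with heme-albumin, 202 ± 35 CPM with IL-4 and 77.1 ± 2.85 CPM in untreated cells. Fech, which inserts the iron that completes heme, was higher (0.60 ± 0.11, adjusted p = 0.000842), and Slc25a37, which brings iron into mitochondria, was higher as well (1.24 ± 0.16, adjusted p = 6.06e-05). Aco1, the iron regulatory protein that doubles as cytosolic aconitase, and Hfe, a partner of the transferrin receptor, were lower with heme-albumin (-1.03 ± 0.11 and -1.04 ± 0.15), and both were above untreated cells with IL-4 (0.81 ± 0.11 and 1.23 ± 0.15). Ireb2, the second iron regulatory protein, had 69.9 ± 3.95 CPM with heme-albumin and 76.3 ± 5.94 CPM with IL-4 and did not pass (-0.13 ± 0.12).

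NRF2 targets were higher with heme-albumin almost throughout. Of 26 tested, 24 were higher and 0 lower, with a median of 2.11. Against untreated cells, 25 were higher with heme-albumin (of all genes, 14.0% were), with a median of 2.06, and with IL-4 4 were higher (14.9% of all genes) and 3 lower (12% of all genes), with a median of -0.06. The glutathione branch held some of the widest differences. Gclm, the modifier subunit of the enzyme that starts glutathione synthesis, had 1207, 1571 and 1430.4 CPM with heme-albumin, against 100.5, 102 and 116 CPM with IL-4. Every heme-albumin library lay far above every IL-4 library (3.72 ± 0.40, adjusted p = 1.05e-05). Beside it, the catalytic subunit Gclc (2.11 ± 0.37, adjusted p = 0.000695), the glutathione reductase Gsr (2.81 ± 0.34, adjusted p = 3.26e-05) and the transferase Gstm1 (1.80 ± 0.35, adjusted p = 0.00146) were also higher. Slc7a11, the cystine importer, had 64.8, 285 and 108 CPM with heme-albumin, against 14.3, 7.15 and 10.8 CPM with IL-4. Replicate 2 was the highest of the heme-albumin libraries, and the groups did not overlap (3.83 ± 0.94, adjusted p = 0.00648, against 3.00, adjusted p = 0.0298 without replicate 2).

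The peroxide and quinone branch moved with it. The peroxiredoxin Prdx1 had 11082 ± 3404 CPM with heme-albumin and 1513 ± 168 CPM with IL-4 (2.87 ± 0.41, adjusted p = 0.000128). The quinone reductase Nqo1 had 213, 487 and 270.0 CPM with heme-albumin, against 20, 28.2 and 26.5 CPM with IL-4 and 15, 14.9 and 15.7 CPM in untreated cells. Every heme-albumin library lay above all others (3.70 ± 0.38, adjusted p = 6.43e-06). Catalase (Cat, 2.15 ± 0.24), sulfiredoxin (Srxn1, 2.21 ± 0.38), thioredoxin reductase (Txnrd1, 1.37 ± 0.25) and the aldehyde oxidase Aox1 (5.58 ± 0.35) were higher too. The NADPH makers malic enzyme Me1 (3.34 ± 0.19, adjusted p = 4.43e-08), G6pdx (1.40 ± 0.12) and Pgd (1.55 ± 0.17) were higher, and so was Taldo1, the transaldolase of the pentose phosphate pathway (1.70 ± 0.24). The exceptions were Ephx1, an epoxide hydrolase with 157 ± 38.6 CPM with heme-albumin, 169.9 ± 15.9 CPM with IL-4 and 37.9 ± 9.28 CPM in untreated cells, and the transketolase Tkt with 699 ± 35.6 CPM with heme-albumin, 622 ± 18.9 CPM with IL-4 and 460.0 ± 18.1 CPM in untreated cells. Neither passed between the treatments (-0.12 ± 0.24 and 0.17 ± 0.12), and both were higher than in untreated cells with either treatment.

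**Figure D3:**
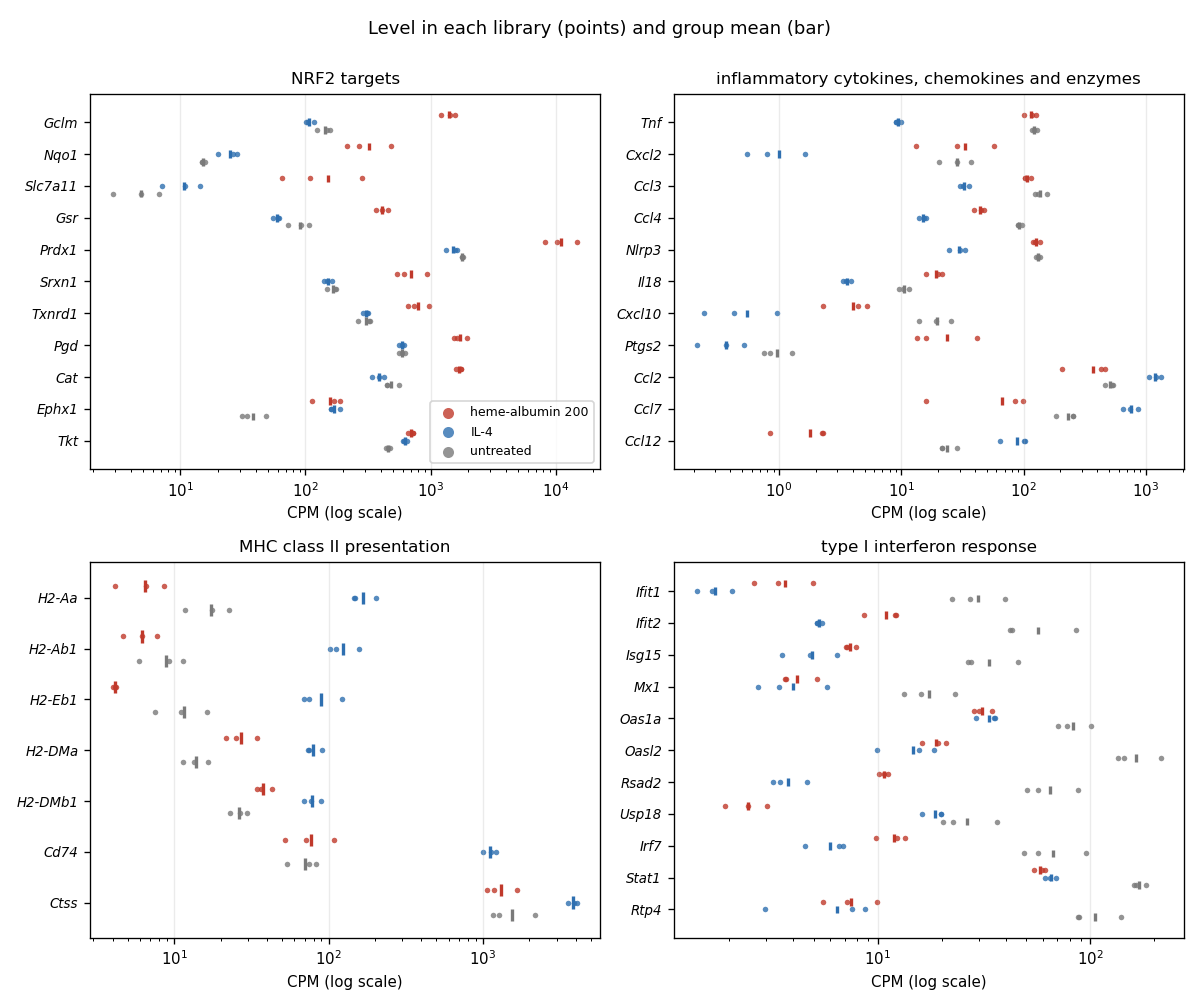
Levels in CPM (horizontal axes, log scale) of members of 4 gene lists in each library of the heme-albumin 200 (red), IL-4 (blue) and untreated (grey) groups, with bars for group means. Most NRF2 targets are high with heme-albumin alone, most MHC class II genes are highest with IL-4, several inflammatory genes are low with IL-4 alone, and most type I interferon genes are low with both treatments.

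Several surface proteins were among the widest differences toward heme-albumin. Marco, a scavenger receptor for particles and modified lipoproteins (ENSMUSG00000026390, chromosome 1, 120474538 to 120505024), had 2455, 1267 and 1958 CPM with heme-albumin, against 1.47, 0.477 and 1.22 CPM with IL-4 and 340.0, 77.4 and 169 CPM in untreated cells. Heme-albumin libraries were above and IL-4 libraries below all untreated ones (10.80 ± 1.79, adjusted p = 0.000394). Clec4n (dectin-2), a lectin for fungal mannans, had 641, 1617 and 1269.8 CPM with heme-albumin, against 6.43, 5.09 and 8.93 CPM with IL-4 and 28.6, 14.6 and 31.5 CPM in untreated cells. Again untreated cells lay between the treatments, though far nearer to IL-4 (7.42 ± 0.80, adjusted p = 1.05e-05). Esam, an adhesion molecule of endothelium and platelets, had 197, 238 and 180.3 CPM with heme-albumin, against 0.122, 0.053 and 0.139 CPM with IL-4 and 0.128, 0.242 and 0.215 CPM in untreated cells. It was near 0 in both other groups (10.77 ± 0.21, adjusted p = 9.34e-13). The formyl peptide receptors Fpr1 and Fpr2, which guide phagocytes to bacteria and damaged mitochondria, were higher (8.91 ± 1.44, adjusted p = 0.000329 and 8.87 ± 0.98, adjusted p = 1.39e-05), and so was the surface antigen Ly6a (8.83 ± 0.70, adjusted p = 8.05e-07). For these 3 genes, IL-4 libraries lay below untreated ones (-5.37 ± 1.53, -6.35 ± 1.05 and -6.72 ± 0.68).

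The other leading genes were enzymes, transporters and genes with few counts with IL-4. Mgst2, a microsomal glutathione transferase, had 149 ± 36.8 CPM with heme-albumin and 0.469 ± 0.235 CPM with IL-4 (8.29 ± 0.34, adjusted p = 3.42e-09). The zinc importer Slc39a4 had 58.4 ± 42.4 CPM with heme-albumin and 0.213 ± 0.0811 CPM with IL-4 (8.10 ± 0.75, adjusted p = 2.66e-06, and 7.34 without heme-albumin replicate 2). Rnf183, a ubiquitin ligase, had 3 counts with IL-4, against 43.4 ± 15.1 CPM with heme-albumin, a ratio of 936-fold (95% interval 319.7 to 4543). The kinase gene Hunk and the alcohol dehydrogenase Adh7 had 0 counts with IL-4. Hunk was at least 78.7-fold higher with heme-albumin at 3.59 ± 0.751 CPM. Adh7 was at least 43-fold higher, with 0.215, 4.82 and 1.17 CPM, the highest of them in replicate 2, and its call was lost without that library (adjusted p = 0.0814) and without IL-4 replicate 3 (adjusted p = 0.0523).

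Genes of tissue macrophages were divided. Of 15 such genes, 14 were tested, and 6 were higher and 3 lower (16.8% and 14.5% of all genes). The median was 1.78. Treml4, a receptor of splenic macrophages, had 346, 251 and 367 CPM with heme-albumin, against 0.551, 0.053 and 0.73 CPM with IL-4 and 4.03, 1.82 and 4.19 CPM in untreated cells. It was high with heme-albumin alone (9.38 ± 0.81, adjusted p = 1.46e-06, and 10.09 without IL-4 replicate 3). Spic, the transcription factor of red pulp macrophages that heme induces, had 16.6, 16 and 20.5 CPM with heme-albumin, against 0.551, 0.159 and 0.452 CPM with IL-4 and 1.15, 0.363 and 0.645 CPM in untreated cells. Heme-albumin libraries stood above both other groups (5.47 ± 1.02, adjusted p = 0.001). Cd5l, a scavenger protein of tissue macrophages, was higher (2.30 ± 0.44, adjusted p = 0.00117). Siglec1, a sialic acid receptor, had 158 ± 48.3 CPM with heme-albumin and 65.9 ± 12.3 CPM with IL-4 and did not pass (1.26 ± 0.46, adjusted p = 0.0523; adjusted p = 0.0452 without heme-albumin replicate 2 and 0.000362 with the replicate block and only the 6 libraries), and the Kupffer cell gene Clec4f had 0 counts in both groups. Leaving out any 1 of the 6 libraries left at most 1 lower gene.

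The genes of alternative activation were on the IL-4 side. Of 36 on the list, 34 were tested, 30 were lower with heme-albumin and 2 were higher, with a median of -5.24. Against untreated cells, 30 were higher with IL-4 (14.9% of all genes were) and 7 with heme-albumin (14.0% of all genes), with medians of 5.25 and 0.14. Retnla (FIZZ1, ENSMUSG00000061100, chromosome 16, 48842551 to 48844461), a secreted marker of IL-4 action, had 0 counts in the 3 heme-albumin libraries, against 2873, 1349 and 2361 CPM with IL-4. It was at least 25758-fold lower with heme-albumin, and untreated cells held 1 count in all. Chil3 (Ym1, ENSMUSG00000040809, chromosome 3, 106147554 to 106167564), a chitinase-like lectin, had 1, 0.676 and 0.637 CPM with heme-albumin, against 7365, 3182 and 5978 CPM with IL-4 and 4.41, 1.21 and 0.645 CPM in untreated cells. Heme-albumin and untreated libraries overlapped, while IL-4 libraries lay far above (-12.75 ± 1.23, adjusted p = 3.92e-06). Its neighbour Chil4 had 0 counts with heme-albumin and 77.9 ± 13 CPM with IL-4, at least 906-fold lower.

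Receptors and secreted factors of the IL-4 state followed. The galactose lectin Mgl2 had 8.16, 15.6 and 14.2 CPM with heme-albumin, against 2529.7, 3042 and 2561 CPM with IL-4 and 10, 14.2 and 9.89 CPM in untreated cells (-7.75 ± 0.50, adjusted p = 1.04e-07). Heme-albumin and untreated libraries overlapped there. The mannose receptor Mrc1 had 437, 138 and 498 CPM with heme-albumin, against 2772, 2822 and 3065 CPM with IL-4 and 2182, 1655 and 1968 CPM in untreated cells. All heme-albumin libraries were below all untreated ones, replicate 2 lowest (-3.01 ± 0.61, adjusted p = 0.00185). The ribonuclease Rnase2a had 4 counts over the heme-albumin libraries, against 965 ± 196 CPM with IL-4 (-12.95 ± 0.55, adjusted p = 3.81e-09, and -14.21 without heme-albumin replicate 2). Fibronectin (Fn1), a matrix protein, had 0.143, 1.18 and 0.637 CPM with heme-albumin, against 696, 130.0 and 225 CPM with IL-4. IL-4 libraries varied widely and all lay above heme-albumin (-9.10 ± 0.79, adjusted p = 1.58e-06, with -9.95 without heme-albumin replicate 2 and -8.12 without IL-4 replicate 1). The integrin Itgax (CD11c) had 8.01 ± 8.89 CPM with heme-albumin and 619 ± 175 CPM with IL-4 (-6.27 ± 0.76, adjusted p = 2.97e-05, and -7.77 without heme-albumin replicate 2), and the growth factor receptor Flt1 had 1.32 ± 0.328 CPM with heme-albumin and 79.9 ± 8.72 CPM with IL-4 (-5.90 ± 0.55, adjusted p = 3.06e-06).

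Several genes, from the list or from the largest differences, had almost no counts with heme-albumin and few or none in untreated cells. The chemokine Ccl8 had 0 counts with heme-albumin and 9.74, 22.7 and 40.6 CPM with IL-4, at least 322-fold lower. Pdcd1lg2 (PD-L2), which dampens T cells, had 0 counts with heme-albumin and 17.8, 13.8 and 14.3 CPM with IL-4, at least 177-fold lower. The sodium channel Scn3a and the potassium channel Kcnd3 had 0 counts with heme-albumin and 42.3 ± 14.9 CPM and 28.3 ± 11.4 CPM with IL-4, at least 484-fold and 329-fold lower. The homeobox gene Msx3 had 2 counts with heme-albumin and 109.8 ± 2.45 CPM with IL-4, lower by 1935-fold (95% interval 535 to 15979). The tubulin Tuba8 and the claudin Cldn11 had 1 count each with heme-albumin, lower by 2549-fold (95% interval 457 to 100691) and by 3035-fold (95% interval 544 to 119894). Untreated cells held 12 counts of Ccl8, 5 of Pdcd1lg2 and 0 of Scn3a, Kcnd3, Msx3, Tuba8 and Cldn11.

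The list had members that did not follow. Il4ra, the IL-4 receptor alpha chain, was higher with heme-albumin (1.03 ± 0.15, adjusted p = 0.000166), and Alox15, a lipoxygenase at 1.91 ± 0.591 CPM with heme-albumin and 0.577 ± 0.569 CPM with IL-4, was the other higher one (1.79 ± 0.63, adjusted p = 0.0433). The call of Alox15 was lost without heme-albumin replicate 1 or 3 and without IL-4 replicate 2 or 3 (adjusted p = 0.143, 0.0956, 0.144 and 0.16), and its value was 2.81 without IL-4 replicate 1. Myc, a growth regulator, had 67.5 ± 4.29 CPM with heme-albumin and 87.9 ± 14.3 CPM with IL-4 and did not pass (-0.38 ± 0.55, adjusted p = 0.649, against 0.02 with the replicate block and only the 6 libraries). Mmp12, the macrophage elastase, had 441, 5549 and 903 CPM with heme-albumin, against 6855, 3430.4 and 5066 CPM with IL-4 and 299.6, 353 and 292 CPM in untreated cells. Replicate 2 of heme-albumin was as high as the IL-4 libraries and the other two were not, so the groups overlapped (-1.16 ± 0.86, adjusted p = 0.346, against -2.93, adjusted p = 0.0204 without that library). The lectin Clec10a was lower with heme-albumin than with IL-4 (-2.08 ± 0.31, adjusted p = 0.000184) and above untreated cells with heme-albumin (1.36 ± 0.31, adjusted p = 0.00699), and so was the adhesion molecule Cdh1 (-3.93 ± 0.22 against IL-4, 3.90 ± 0.36 against untreated cells).

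Receptor and feedback genes of IL-4 signalling differed. Of 14 genes, all tested, 4 were higher, 5 lower and the median was -0.01 (-0.06 to 0.02 without 1 library). The receptor chains Il4ra, Il2rg and Il13ra1 were higher with heme-albumin (1.03 ± 0.15, 0.69 ± 0.13 and 2.43 ± 0.20), and all 3 were lower with IL-4 than in untreated cells (-0.65 ± 0.15, -0.69 ± 0.13 and -2.15 ± 0.19). Stat6, with 293 ± 23.6 CPM with heme-albumin and 265 ± 8 CPM with IL-4, and the kinases Jak1, Jak3 and Tyk2 did not pass (0.14 ± 0.11, -0.30 ± 0.12, 0.30 ± 0.21 and -0.17 ± 0.14), though Jak1 passed with the replicate block and only the 6 libraries (adjusted p = 0.0192). The feedback inhibitors Socs1 and Cish, which STAT proteins switch on, were lower with heme-albumin (-6.15 ± 0.50, adjusted p = 9.18e-07 and -6.65 ± 0.40, adjusted p = 5.85e-08). Socs2 had 0 counts with heme-albumin and 3.96 ± 1.03 CPM with IL-4, at least 45.5-fold lower. Transcription factors of the IL-4 state followed the feedback genes, with Irf4 (-5.12 ± 0.41, adjusted p = 7.9e-07), Egr2 (-4.62 ± 0.57, adjusted p = 3.53e-05, and -5.93 without heme-albumin replicate 2), Klf4 (-2.32 ± 0.30, adjusted p = 5.41e-05) and Pparg (-2.50 ± 0.24, adjusted p = 3.59e-06) lower with heme-albumin.

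Promoters were searched for the letters of 2 motifs on both strands, the core of the antioxidant response element (TGACNNNGC) and the palindrome that STAT6 prefers, TTC and GAA with 4 bases of any kind between them. A window runs from 250 bases before to 50 after a gene's start in RefSeq (GRCm38.p6), and 9276 of the tested genes had at least 1. TGACNNNGC was in a window of 17.2% of these genes, in 17.4% of those at least 2-fold higher and in 17.5% of those at least 2-fold lower with heme-albumin, and in 8 of the 21 NRF2 targets with a window (38.1%). The palindrome was in 6.66% of the tested genes, in 7.08% of those at least 2-fold higher, in 9.25% of those at least 2-fold lower, and in 4 of the 25 alternative activation genes with a window (16.0%). The other way round, TGACNNNGC was in 5 of the 25 alternative activation genes (20.0%) and the palindrome in 2 of the 21 NRF2 targets (9.52%). Over all 27025 genes with a window the shares were 14.0% and 8.01%. To show how the letters lie, 3 genes with a match are printed in each direction, with matches in capitals, 5′ to 3′. They have the smallest p among genes named for their largest differences or as the list members of smallest p. Windows on a single chromosome were passed over and are not reported here, so a named gene of smaller p may be missing. A match is a description of the letters and not of binding.
Me1 (chr9:86695865-86696164, minus strand): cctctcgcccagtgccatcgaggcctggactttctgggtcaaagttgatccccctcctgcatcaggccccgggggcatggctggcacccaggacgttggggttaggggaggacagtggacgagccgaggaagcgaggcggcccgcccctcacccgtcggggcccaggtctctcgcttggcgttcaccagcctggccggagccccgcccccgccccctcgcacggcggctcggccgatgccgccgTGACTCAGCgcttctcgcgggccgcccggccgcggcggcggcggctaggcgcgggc
Nlrp3 (chr11:59542436-59542735, plus strand): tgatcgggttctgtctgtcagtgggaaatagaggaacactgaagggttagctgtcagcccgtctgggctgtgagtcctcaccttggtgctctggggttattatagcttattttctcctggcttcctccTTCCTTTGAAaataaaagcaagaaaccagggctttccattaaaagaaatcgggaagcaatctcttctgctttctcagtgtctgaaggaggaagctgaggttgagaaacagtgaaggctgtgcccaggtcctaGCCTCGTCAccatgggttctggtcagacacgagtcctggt
Il18 (chr9:50554450-50554749, plus strand): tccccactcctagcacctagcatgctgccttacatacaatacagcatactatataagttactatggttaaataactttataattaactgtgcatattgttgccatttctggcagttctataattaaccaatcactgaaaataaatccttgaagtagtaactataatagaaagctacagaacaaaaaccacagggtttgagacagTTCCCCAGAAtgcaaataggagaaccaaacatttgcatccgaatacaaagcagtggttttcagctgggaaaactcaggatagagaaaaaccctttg
Pdcd1lg2 (chr19:29410669-29410968, plus strand): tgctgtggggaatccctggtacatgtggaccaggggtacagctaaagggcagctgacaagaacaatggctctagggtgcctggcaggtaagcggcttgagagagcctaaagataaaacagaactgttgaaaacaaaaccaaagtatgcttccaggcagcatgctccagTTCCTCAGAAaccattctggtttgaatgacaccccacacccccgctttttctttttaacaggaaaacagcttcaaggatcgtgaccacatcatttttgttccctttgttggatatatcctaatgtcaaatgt
Timp2 (chr11:118355362-118355661, minus strand): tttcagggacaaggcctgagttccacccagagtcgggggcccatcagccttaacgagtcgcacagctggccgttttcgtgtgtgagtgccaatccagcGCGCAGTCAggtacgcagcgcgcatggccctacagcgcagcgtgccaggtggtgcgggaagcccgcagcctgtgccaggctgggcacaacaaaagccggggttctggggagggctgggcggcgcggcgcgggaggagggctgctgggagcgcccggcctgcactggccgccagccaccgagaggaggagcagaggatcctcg
Pparg (chr6:115362099-115362398, plus strand): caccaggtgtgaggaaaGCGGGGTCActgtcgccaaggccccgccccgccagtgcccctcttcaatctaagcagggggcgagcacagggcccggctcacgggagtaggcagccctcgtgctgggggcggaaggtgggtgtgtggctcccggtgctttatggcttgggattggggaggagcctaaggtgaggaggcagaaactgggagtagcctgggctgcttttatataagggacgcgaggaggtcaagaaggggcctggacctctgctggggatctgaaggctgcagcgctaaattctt

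The window of Me1, higher with heme-albumin, holds TGACTCAGC across the start. The window of Pdcd1lg2, lower with heme-albumin, holds the palindrome as TTCCTCAGAA. Of the others, Nlrp3, higher with heme-albumin, holds both motifs, TGACNNNGC on the opposite strand, Il18, also higher, holds the palindrome, and Timp2 and Pparg, lower with heme-albumin, hold TGACNNNGC on the opposite strand.

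More inflammatory genes were higher than lower with heme-albumin. Of 22 on the list, 18 were tested, 10 were higher with heme-albumin than with IL-4, 2 were lower and the median was 1.62 (0.95 with no filter on low counts and 2.27 with the replicate block and only the 6 libraries). The listed genes summed to 751 to 1046 CPM with heme-albumin, against 1857 to 2387 CPM with IL-4 and 1195 to 1385 CPM in untreated cells, so the heme-albumin sums were the lowest. Against untreated cells, 2 were higher and 3 lower with heme-albumin (14.0% and 9.48% of all genes), with a median of -0.46, and 0 were higher and 8 lower with IL-4 (14.9% and 12% of all genes), with a median of -2.11, 1 being higher with IL-4 at an unadjusted p under 0.05. The neutrophil chemokine Cxcl2 had 13.1, 57.6 and 28.3 CPM with heme-albumin, against 0.551, 0.795 and 1.63 CPM with IL-4 and 36.9, 20.5 and 28.7 CPM in untreated cells. Heme-albumin and untreated libraries overlapped and IL-4 libraries lay below both (4.95 ± 0.67, adjusted p = 7.99e-05, with 4.27 without heme-albumin replicate 2 and 5.58 without IL-4 replicate 3). Nlrp3, the inflammasome sensor, had 120.2, 124 and 135 CPM with heme-albumin, against 24.6, 33.2 and 30.3 CPM with IL-4 and 130.4, 127 and 135 CPM in untreated cells, in the same order (2.10 ± 0.13, adjusted p = 7.73e-08). Ccl3 and Ccl4, which draw monocytes and T cells, were higher than with IL-4 (1.71 ± 0.24 and 1.54 ± 0.24), and Ccl4 was below untreated cells with heme-albumin as well (-1.07 ± 0.24, adjusted p = 0.00537). Acod1, which makes the antimicrobial itaconate and stands on the arginine list, had 81.3, 296 and 137 CPM with heme-albumin, against 2.08, 3.34 and 3.2 CPM with IL-4 and 133, 117 and 97.5 CPM in untreated cells. It followed Cxcl2 in that order (5.88 ± 0.50, adjusted p = 1.36e-06, and 5.22 without heme-albumin replicate 2).

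A few inflammatory genes were above untreated cells with heme-albumin. Ptgs2 (COX-2), the inducible prostaglandin enzyme, had 13.5, 41.5 and 15.8 CPM with heme-albumin, against 0.367, 0.212 and 0.521 CPM with IL-4 and 1.28, 0.847 and 0.752 CPM in untreated cells. Every heme-albumin library lay above all others (5.90 ± 0.66, adjusted p = 1.57e-05, and 5.21 without replicate 2). Against untreated cells, Ptgs2 was higher with heme-albumin (4.57 ± 0.62, adjusted p = 0.000158). The cytokine Il18 had 19.1 ± 3.01 CPM with heme-albumin, 3.57 ± 0.275 CPM with IL-4 and 10.5 ± 1.02 CPM in untreated cells (2.41 ± 0.15, adjusted p = 1.01e-07). Ccl7, a monocyte chemokine, was lower than with IL-4, with 85.2, 15.8 and 98 CPM with heme-albumin, against 649.9, 739 and 866 CPM with IL-4 and 255, 185 and 255 CPM in untreated cells. Heme-albumin libraries lay below the untreated ones and IL-4 libraries above (-3.50 ± 0.98, adjusted p = 0.014, lost without heme-albumin replicate 2 with adjusted p = 0.0517), and Ccl12 was ordered likewise (-5.63 ± 0.91, adjusted p = 0.000318). Ccl2, with 367 ± 141 CPM with heme-albumin, 1196 ± 131 CPM with IL-4 and 509 ± 42 CPM in untreated cells, did not pass (-1.71 ± 0.69, adjusted p = 0.0779, against 0.0022 with the replicate block and only the 6 libraries). The cytokine genes Il12a, Il12b and Il23a had 0 counts in both groups.

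Anti-inflammatory mediators were divided. Of 17 tested, 6 were higher and 5 lower, with a median of -0.06 (-0.22 to 0.10 without 1 library). Il10, the main anti-inflammatory cytokine, had 6.13 ± 2.56 CPM with heme-albumin, 0.836 ± 0.223 CPM with IL-4 and 3.65 ± 0.71 CPM in untreated cells and was higher with heme-albumin (2.84 ± 0.55, adjusted p = 0.00131). The NF-kappa-B inhibitor Nfkbia and the MAP kinase phosphatase Dusp1 were also higher (1.85 ± 0.26, adjusted p = 0.000118 and 1.82 ± 0.40, adjusted p = 0.00321). Lower with heme-albumin were the glycoprotein Gpnmb, with 6841 ± 2677 CPM with heme-albumin and 16379 ± 1423 CPM with IL-4 (-1.26 ± 0.30, adjusted p = 0.00594), annexin A1 (Anxa1, -0.90 ± 0.17, adjusted p = 0.0012) and the glucocorticoid-induced Tsc22d3 (-1.15 ± 0.17, adjusted p = 0.000183). Tgfb1 had 277 ± 20.4 CPM with heme-albumin and 328 ± 38.2 CPM with IL-4 and did not pass (-0.24 ± 0.13).

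Type I interferon genes were low in both groups. Of 26 tested, 26 were lower than in untreated cells with heme-albumin and 25 with IL-4 (9.48% and 12% of all genes were lower), with medians of -2.28 and -2.68. These comparisons share their untreated libraries. Between the treatments, 5 were higher with heme-albumin and 3 lower (16.8% and 14.5% of all genes), and 18 did not pass. The median was 0.41 (0.27 to 0.52 without 1 library). With replicate number as a block 10 were higher, and 3 without heme-albumin replicate 1 or 3. Rtp4, a chaperone of receptors, had 9.88, 7.18 and 5.52 CPM with heme-albumin, against 2.94, 8.69 and 7.61 CPM with IL-4 and 88.3, 139 and 87.9 CPM in untreated cells. The treatments overlapped, far below untreated cells (0.23 ± 0.37, adjusted p = 0.689). The ubiquitin-like Isg15 had 7.39 ± 0.421 CPM with heme-albumin, 4.92 ± 1.43 CPM with IL-4 and 33.4 ± 10.9 CPM in untreated cells and did not pass between the treatments (0.58 ± 0.24, adjusted p = 0.0875; adjusted p = 0.0186 with the replicate block and 0.034 without IL-4 replicate 2). Usp18, which removes Isg15 from proteins and blocks the interferon receptor, was 1 of the 3 lower members, with 3.01, 2.45 and 1.91 CPM with heme-albumin, against 16.2, 19.8 and 19.8 CPM with IL-4 and 20.3, 36.5 and 22.5 CPM in untreated cells. IL-4 libraries lay near the untreated ones and heme-albumin libraries below both (-2.90 ± 0.37, adjusted p = 4.43e-05). Of the 5 higher genes, Oas3 (1.73 ± 0.34, adjusted p = 0.00127), Rsad2 (1.50 ± 0.29, adjusted p = 0.0012) and Dhx58 (0.61 ± 0.11, adjusted p = 0.000649) had the smallest p.

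Antigen presentation genes lay on the IL-4 side. Of 11 MHC class II genes tested, 8 were lower with heme-albumin and 2 higher, with a median of -1.57. The median was -3.84 with the filter of 5 CPM or only the 6 libraries, and -3.90 with the replicate block as well. The beta chain H2-Ab1 had 7.8, 6.17 and 4.67 CPM with heme-albumin, against 157, 102 and 111 CPM with IL-4 and 11.5, 9.32 and 5.91 CPM in untreated cells. IL-4 libraries stood apart and heme-albumin libraries overlapped the untreated ones (-4.29 ± 0.42, adjusted p = 4.31e-06). H2-Aa and H2-Eb1 followed (-4.67 ± 0.39, adjusted p = 1.17e-06 and -4.42 ± 0.38, adjusted p = 1.5e-06), and so did Ciita, the master activator of these genes (-5.40 ± 0.37, adjusted p = 2.2e-07, and -6.22 without heme-albumin replicate 1), and the invariant chain Cd74, with 77.1 ± 28.4 CPM with heme-albumin and 1113 ± 112 CPM with IL-4 (-3.85 ± 0.32, adjusted p = 1.11e-06). The peptide loaders H2-DMa and H2-DMb1 were also lower with heme-albumin (-1.55 ± 0.19 and -1.05 ± 0.12), but above untreated cells (0.98 ± 0.20 and 0.52 ± 0.12). The 2 higher members, the loading inhibitors H2-Oa and H2-Ob, were near 1 CPM or less, at 0.539 ± 0.471 CPM with heme-albumin and 0.0204 ± 0.0354 CPM with IL-4 and at 1.14 ± 0.481 CPM with heme-albumin and 0.175 ± 0.0695 CPM with IL-4. Without heme-albumin replicate 2, or without IL-4 replicate 2 or 3, neither passed (adjusted p = 0.153, 0.0675 and 0.0909 for H2-Oa and 0.118, 0.086 and 0.0846 for H2-Ob). H2-Ob did not pass without heme-albumin replicate 3, without IL-4 replicate 1 or with the replicate block either (adjusted p = 0.0628, 0.0539 and 0.0541).

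Costimulatory and checkpoint genes were higher with heme-albumin more often than lower. Of 15 tested, 9 were higher and 4 lower, with a median of 0.71, and without IL-4 replicate 2 or 3 the lower ones were 2. Cd276 (B7-H3) had 74 ± 11 CPM with heme-albumin, 9.37 ± 0.767 CPM with IL-4 and 8.14 ± 4.59 CPM in untreated cells (2.98 ± 0.34, adjusted p = 1.85e-05). Tnfsf4 (OX40 ligand, 3.47 ± 0.65, adjusted p = 0.00106), Icosl (2.24 ± 0.38, adjusted p = 0.000492) and the checkpoint receptor Havcr2 (TIM-3, 1.63 ± 0.23, adjusted p = 0.000116) were higher as well. Beside Pdcd1lg2, the T cell ligand Cd80 was lower (-0.43 ± 0.09, adjusted p = 0.002). Cd274 (PD-L1) had 40.3 ± 22 CPM with heme-albumin, 73.2 ± 10.4 CPM with IL-4 and 20.4 ± 2.46 CPM in untreated cells and did not pass between the treatments (-0.86 ± 0.43, against -1.40, adjusted p = 0.038 without heme-albumin replicate 2).

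**Figure D4:**
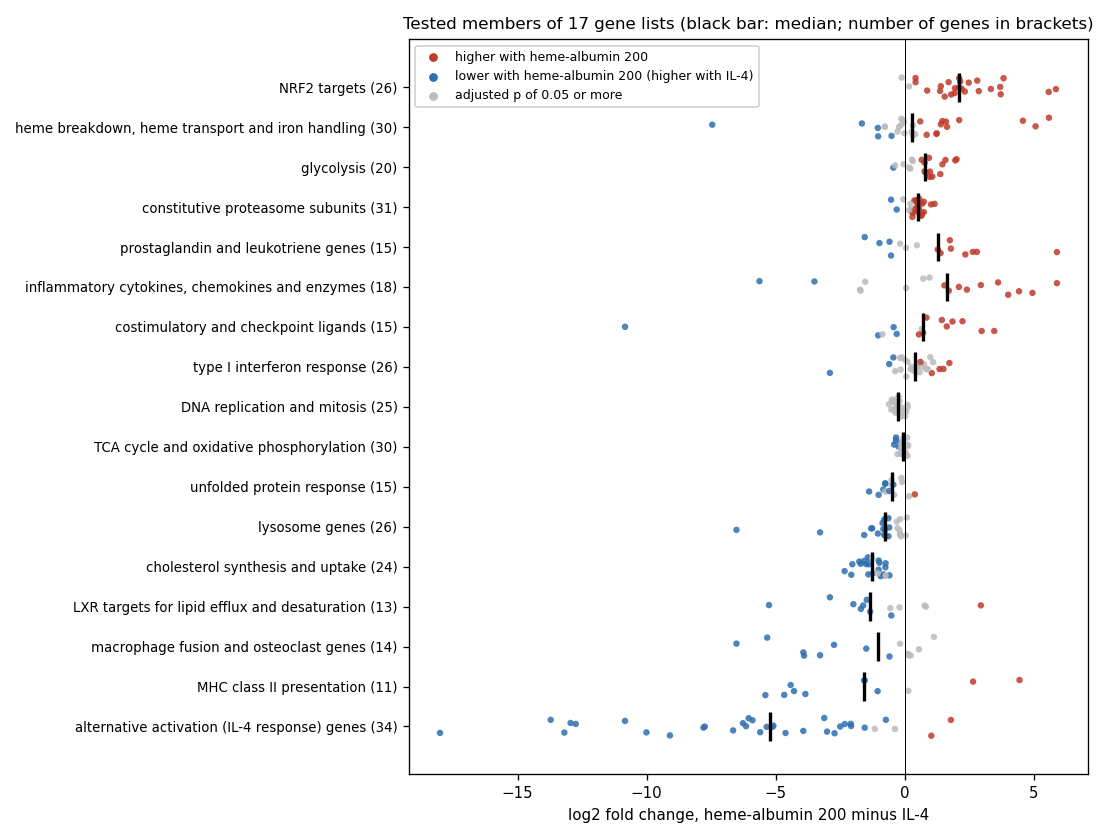
Log2 fold change of heme-albumin 200 minus IL-4 (horizontal axis) of the tested members of 17 gene lists (rows), with higher members in red, lower in blue, others in grey and a black bar at the median. The NRF2 list has 24 higher members of 26 and the alternative activation list 30 lower members of 34, while none of the 25 DNA replication and mitosis genes was called.

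Cholesterol synthesis genes were lower with heme-albumin. Of 24 tested, 20 were lower and 0 higher, with a median of -1.25. Without replicate 2 of heme-albumin 12 were lower, and with replicate number as a block 23 were. Against untreated cells, 20 were lower with heme-albumin (9.48% of all genes) and 1 with IL-4 (12% of all genes). Hmgcs1, an early enzyme of the pathway, had 71.1, 32 and 51.4 CPM with heme-albumin, against 206, 207 and 217 CPM with IL-4 and 265, 198 and 214 CPM in untreated cells. Heme-albumin libraries lay below all others, replicate 2 lowest (-2.03 ± 0.26, adjusted p = 4.97e-05). Mvd and Acat2 were lower (-2.07 ± 0.26, adjusted p = 3.78e-05 and -2.33 ± 0.40, adjusted p = 0.000559), and so was the sterol sensor Insig1, with 78.4, 21 and 48 CPM with heme-albumin, against 157, 171 and 173 CPM with IL-4 (-1.76 ± 0.45, adjusted p = 0.00841).

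Of 13 tested LXR targets for lipid efflux and desaturation, 8 were lower with heme-albumin and 1 higher, with a median of -1.34. Scd1, the desaturase that makes oleate, had 6.37, 4.65 and 3.5 CPM with heme-albumin, against 142, 249 and 176 CPM with IL-4 and 206, 255 and 145 CPM in untreated cells. IL-4 and untreated libraries overlapped and heme-albumin libraries lay far below (-5.26 ± 0.66, adjusted p = 3.92e-05). Its relative Scd2 (-2.90 ± 0.61, adjusted p = 0.00242) and the fatty acid synthase Fasn (-1.99 ± 0.51, adjusted p = 0.00835) were lower too. The sterol exporter Abcg1 was lower with heme-albumin (-1.61 ± 0.31, adjusted p = 0.00137) and higher with IL-4 than in untreated cells (1.97 ± 0.32, adjusted p = 0.000457), whereas Abca1, at 69.8 ± 11.4 CPM with heme-albumin, 41 ± 17 CPM with IL-4 and 105 ± 24.4 CPM in untreated cells, did not pass (0.77 ± 0.28, adjusted p = 0.0513, against 0.0308 with the replicate block). Apoc2, a cofactor of lipoprotein lipase, was the higher member (2.95 ± 0.60, adjusted p = 0.00174).

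Lipid uptake and storage were partly shared. Of 15 tested genes, 4 were higher and 2 lower (16.8% and 14.5% of all genes), and 9 did not pass. The median was 0.08 (-0.07 to 0.15 without 1 library). The fatty acid translocase Cd36 had 2512, 4308 and 3182 CPM with heme-albumin, against 3583, 2522 and 3352 CPM with IL-4 and 1081, 996 and 1026 CPM in untreated cells. Both treatments lay above untreated cells and overlapped each other (0.08 ± 0.27, adjusted p = 0.856, and -0.15 without heme-albumin replicate 2). Lipoprotein lipase, Lpl, was higher with heme-albumin (1.32 ± 0.18, adjusted p = 7.54e-05), at 9777 ± 518 CPM with heme-albumin, 3922 ± 809 CPM with IL-4 and 3849 ± 385 CPM in untreated cells, and so was Plin2, which coats lipid droplets (0.77 ± 0.20, adjusted p = 0.00886, lost without heme-albumin replicate 2 with adjusted p = 0.0523). The fatty acid carrier Fabp5 was lower (-2.09 ± 0.41, adjusted p = 0.00146), as was Pparg (given above). Without heme-albumin replicate 2, the higher genes were 2.

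Energy and arginine metabolism parted at glycolysis. Of 20 glycolysis genes, 13 were higher with heme-albumin and 1 lower, with a median of 0.80. The glucose importer Slc2a1 (GLUT1) had 265, 256 and 245 CPM with heme-albumin, against 82.4, 100.3 and 74.1 CPM with IL-4. The groups lay far apart for their spread (1.58 ± 0.14, adjusted p = 1.91e-06). Pyruvate kinase (Pkm, 1.38 ± 0.14, adjusted p = 8.46e-06), phosphoglycerate kinase (Pgk1, 1.46 ± 0.18, adjusted p = 3.76e-05) and the lactate exporter Slc16a3 (2.01 ± 0.38, adjusted p = 0.00112) were higher, while the hexokinase Hk3 was lower (-0.44 ± 0.11, adjusted p = 0.008) and lactate dehydrogenase Ldha, at 1102 ± 173 CPM with heme-albumin and 980.4 ± 119 CPM with IL-4, did not pass (0.17 ± 0.23). Of 30 genes of the TCA cycle and oxidative phosphorylation, 0 were higher and 4 lower (16.8% and 14.5% of all genes). The median was -0.08 (-0.10 to -0.05 without 1 library). Without heme-albumin replicate 2 or IL-4 replicate 1, 1 was lower, against 2 without heme-albumin replicate 3. Of 14 arginine and polyamine genes, 2 were higher and 4 lower (16.8% and 14.5% of all genes). Slc7a2, the arginine importer of the IL-4 state, had 0.839 ± 0.0939 CPM with heme-albumin and 191 ± 94.5 CPM with IL-4 (-7.80 ± 0.40, adjusted p = 1.98e-08), and the spermine oxidase Smox was higher with heme-albumin (1.97 ± 0.21, adjusted p = 9.26e-06).

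Prostaglandin and leukotriene genes leaned toward heme-albumin, with 8 of 15 higher, 4 lower and a median of 1.28. Beside Ptgs2, the phospholipase Pla2g4a, which frees arachidonate, was higher (1.39 ± 0.13, adjusted p = 3.1e-06), and so were Alox5, which makes leukotrienes (2.35 ± 0.46, adjusted p = 0.00131), its helper Alox5ap (1.28 ± 0.14, adjusted p = 1.59e-05) and the prostaglandin E synthase Ptges (2.80 ± 0.59, adjusted p = 0.00241). The constitutive cyclooxygenase Ptgs1 was lower (-1.55 ± 0.19, adjusted p = 2.95e-05), and the thromboxane synthase Tbxas1 was lower too (-0.98 ± 0.18, adjusted p = 0.000944). Ptger2, a prostaglandin E receptor, had 52.5 ± 25.1 CPM with heme-albumin, 37.8 ± 2.11 CPM with IL-4 and 7.35 ± 1.54 CPM in untreated cells and did not pass between the treatments (0.47 ± 0.35).

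Lysosome and fusion genes were lower with heme-albumin than with IL-4. Of 26 lysosome genes, 17 were lower and 0 higher, with a median of -0.75. Against untreated cells, 12 were higher and 0 lower with IL-4 (14.9% and 12% of all genes), with a median of 0.39. With heme-albumin, 4 were higher and 7 lower than in untreated cells (14.0% and 9.48% of all genes), with a median of -0.22. The proton pump subunit Atp6v0d2, which also serves fusion, had 4.72, 21.1 and 7.32 CPM with heme-albumin, against 1158, 822 and 1060.5 CPM with IL-4 and 19.4, 27.4 and 21.4 CPM in untreated cells. Heme-albumin libraries lay with or below the untreated ones (-6.52 ± 0.70, adjusted p = 1.1e-05, and -7.41 without heme-albumin replicate 2). The glucuronidase Gusb (-0.80 ± 0.09, adjusted p = 2.28e-05), the cathepsins Ctsz (-1.30 ± 0.19, adjusted p = 0.000123) and Ctsb (-1.04 ± 0.16, adjusted p = 0.000197) and the protective protein Ctsa (-0.86 ± 0.13, adjusted p = 0.000207) were lower by less. Ctsl had 3216 ± 66 CPM with heme-albumin, 3552 ± 783 CPM with IL-4 and 1600.0 ± 36.5 CPM in untreated cells and did not pass (-0.14 ± 0.14). Of 14 fusion and osteoclast genes tested, 8 were lower and 0 higher, with a median of -1.04 (-1.50 to -0.83 over the alternatives). With only the 6 libraries or with the replicate block, 1 was higher. Among the lower ones were the fusion protein Ocstamp (-5.33 ± 0.87, adjusted p = 0.000367), the integrin Itgb3 (-3.90 ± 0.27, adjusted p = 2.39e-07) and the acid phosphatase Acp5 (-2.74 ± 0.42, adjusted p = 0.000226). Against untreated cells, 8 fusion genes were higher and 1 lower with IL-4, with a median of 1.92. With heme-albumin, 1 was higher and 2 lower, with a median of 0.25, beside the same shares of all genes.

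Protein turnover genes were higher in small steps. Of 31 proteasome subunits, 25 were higher with heme-albumin and 2 lower (1 without any 1 library), with a median of 0.50. Psma5 had 181, 168 and 191 CPM with heme-albumin, against 82.3, 80.5 and 78.2 CPM with IL-4. The spread within each group was small (1.16 ± 0.10, adjusted p = 1.78e-06), and Psmd11 (1.02 ± 0.11, adjusted p = 1.16e-05) and Psma7 (0.74 ± 0.08, adjusted p = 1.29e-05) followed, while Psmd8, a lid subunit, was lower (-0.53 ± 0.11, adjusted p = 0.00153). Against untreated cells, Psma5 was higher with heme-albumin (1.18 ± 0.10) and did not pass with IL-4 (0.02 ± 0.10). The autophagy adaptor Sqstm1 (p62), an NRF2 target, was higher as well (2.11 ± 0.26, adjusted p = 3.65e-05).

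Stress responses of the endoplasmic reticulum and of amino acid shortage were on the IL-4 side, with counts that depend on single libraries. Of 15 unfolded protein response genes, 7 were lower with heme-albumin and 1 higher, with a median of -0.51. The lower ones were 2 without heme-albumin replicate 2, 3 without heme-albumin replicate 3 or IL-4 replicate 1, and 4 without IL-4 replicate 2 or 3, against 11 with the block and only the 6 libraries. Sel1l, of the degradation machinery, was lower (-0.76 ± 0.10, adjusted p = 7.34e-05), and so was the disulfide isomerase Pdia4 (-1.38 ± 0.28, adjusted p = 0.00168). Of 19 integrated stress response genes, 6 were lower and 1 higher, with a median of -0.85, 3 lower without heme-albumin replicate 3 and 12 with the block and only the 6 libraries. Ddit3 (CHOP) was lower (-1.92 ± 0.26, adjusted p = 6.68e-05), and so was Phgdh, which starts serine synthesis (-3.49 ± 0.79, adjusted p = 0.00383, and -4.24 without heme-albumin replicate 2). Of 15 heat shock genes tested, 3 were lower and 0 higher (14.5% and 16.8% of all genes). The lower ones were 1 without any 1 library other than IL-4 replicate 2. Hsph1 and Bag3, partners of HSP70, did not pass, at 95 ± 14.7 CPM with heme-albumin, 98.3 ± 11.6 CPM with IL-4 and 44.1 ± 1.52 CPM in untreated cells and at 82.1 ± 10.4 CPM with heme-albumin, 79.4 ± 10.3 CPM with IL-4 and 35.1 ± 1.77 CPM in untreated cells (-0.05 ± 0.17 and 0.05 ± 0.13).

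No proliferation gene passed the test. Of 25 DNA replication and mitosis genes, 0 were called (also 0 at an unadjusted p under 0.05 and 0 with DESeq2), with a median of -0.25 (-0.46 to -0.12 without 1 library). With only the 6 libraries 5 were lower, and 7 with the block as well. Mki67, a mark of cycling cells, had 204, 115 and 132 CPM with heme-albumin, against 254, 157 and 150.3 CPM with IL-4 and 368, 242 and 249 CPM in untreated cells. The groups overlapped, and libraries of replicate 1 were highest in each (-0.32 ± 0.63, adjusted p = 0.747, against 0.0203 with the block and only the 6 libraries). Top2a, a topoisomerase of dividing cells, did not pass either (-0.36 ± 0.59).

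Matrix and uptake genes went both ways. Of 18 tested matrix genes, 6 were higher and 4 lower (16.8% and 14.5% of all genes). The median was 0.39 (0.05 without heme-albumin replicate 2). Osteopontin (Spp1), whose exons overlap another annotated gene, had 13571, 11494 and 10445 CPM with heme-albumin, against 579.9, 530.4 and 833 CPM with IL-4 and 4456, 6997 and 4009 CPM in untreated cells. Untreated cells lay between the treatments (4.19 ± 0.57, adjusted p = 7.83e-05). The collagenase Mmp8 was higher (3.86 ± 0.33, adjusted p = 1.47e-06), while the protease inhibitors Timp2 (-2.02 ± 0.19, adjusted p = 3.24e-06) and Timp1 (-2.71 ± 0.39, adjusted p = 0.000119) were lower. Mmp19 and the urokinase receptor Plaur were above untreated cells with both treatments and did not pass between them, at 136 ± 17 CPM with heme-albumin, 129.9 ± 15.9 CPM with IL-4 and 33.3 ± 2.69 CPM in untreated cells and at 179 ± 22.5 CPM with heme-albumin, 199 ± 27 CPM with IL-4 and 55 ± 6.79 CPM in untreated cells (0.07 ± 0.12 and -0.15 ± 0.13). Of 28 phagocytic and scavenger receptors, 6 were higher and 7 lower (16.8% and 14.5% of all genes). The median was -0.06 (-0.20 to 0.08 without 1 library). The class A receptor Msr1 (1.68 ± 0.19, adjusted p = 1.92e-05) and the high affinity IgG receptor Fcgr1 (3.15 ± 0.27, adjusted p = 1.32e-06) were higher, and the inhibitory IgG receptor Fcgr2b (-3.96 ± 0.26, adjusted p = 1.62e-07) and the bridging protein Mfge8 (-1.99 ± 0.28, adjusted p = 0.000101) were lower. Trem2, a lipid receptor, had 738 ± 31.1 CPM with heme-albumin, 725 ± 50.6 CPM with IL-4 and 506 ± 63.8 CPM in untreated cells and did not pass between the treatments (0.03 ± 0.16).

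Metal-binding genes were few. Of 6, 2 were higher and 1 lower (16.8% and 14.5% of all genes). Mt3, a metallothionein, had 2.15, 21.4 and 3.61 CPM with heme-albumin, against 0.245, 0.318 and 0.417 CPM with IL-4. Replicate 2 stood above the other heme-albumin libraries, and the groups did not overlap (4.71 ± 0.99, adjusted p = 0.00342, against 3.04, adjusted p = 0.0122 without replicate 2). Mt1 was lower with heme-albumin (-0.60 ± 0.16, adjusted p = 0.00887) and Mt2, at 24.4 ± 6.66 CPM with heme-albumin and 30.3 ± 5.26 CPM with IL-4, did not pass (-0.31 ± 0.25).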

How the data were processed

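The authors deposited 1 table of raw counts per gene for 15 libraries, made with a stranded TruSeq kit per the labels' protocols. The submitters' processing notes name STAR 2.7.0e, SAMtools 1.9, featureCounts and GRCm38.p5. The annotation and strand setting of the counting are not given in the sources used here. Of 25700 identifiers, 25664 were matched to GENCODE M21 (GRCm38), which gave symbols and coordinates, and 36 were not. Exons of Abcb6, Acp5, Adh7, Alas1, Alox5ap, Apoc2, Cd274, Cd276, Cd3e, Cd74, Ciita, Cish, Col3a1, Coro1a, Csf1r, Ctsa, Ctsb, Ctsl, Ctsz, Cx3cr1, Ddit3, Dhx58, Dnmt3a, Dusp1, Ephx1, Fcgr2b, Fn1, Fpr2, Ftl1, G6pdx, Gclm, Glul, Gp1bb, H2-DMa, H2-Oa, Hk3, Hmgcs1, Il2rg, Il4ra, Itgam, Jak1, Jak3, Kcnd3, Me1, Mmp12, Mmp19, Mpo, Mt2, Pax5, Pdia4, Pkm, Pla2g7, Psma5, Ptger2, Ptgs1, Rtp4, Scd2, Slc25a37, Slc2a1, Slc48a1, Slc7a2, Spp1, Sqstm1, Stat6, Tbxas1, Tkt, Top2a, Tuba8, Tyk2, Ugt1a1, Ugt1a9 and Usp18 overlap another annotated gene on either strand, so their counts are uncertain.

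Tests on the counts used edgeR 4.0.16 (R 4.3.3) with filterByExpr, TMM factors and 1 quasi-likelihood fit of group means to all 15 libraries. The alternatives tried were DESeq2 1.42.0, edgeR with the size factors of DESeq2 or with upper-quartile scaling, counts without a filter or with at least 5 CPM in 3 libraries, a fit of the 6 libraries alone, the replicate number as a block (with 15 or with 6 libraries), and leaving out each library. Differences between libraries of the same date were taken on log2(CPM + 0.5). The pairing rests on the dates in the column names. In a check, the deviations from the group means of the same-numbered heme-albumin and IL-4 libraries correlated at 0.0819, -0.0138 and 0.153 for replicates 1, 2 and 3. Python 3.11.15 and matplotlib 3.10.9 made the figures.

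The members and lists were chosen with earlier results of these data known, so no list is independent evidence of its direction. Named genes are the 12 largest called differences in each direction (mean of at least 1 CPM, groups not overlapping, predicted genes passed over), the 8 largest among genes reaching 500 CPM, up to 4 members of smallest p of each list, further members where a list is gone through, and Hmox1, Arg1 and Tnf. A few genes that these rules take are not reported here.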

Additional observations from a re-analysis of the deposited data

How the results depend on the processing

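The counts of higher and lower genes stayed within 1.5 times those reported under all 14 alternatives. With the replicate block, 2127 genes were higher and 1887 lower in the fit of 15 libraries, and 2464 and 2425 with only the 6 libraries. DESeq2 gave 2087 and 1880. Leaving out 1 library gave 1622 to 1779 higher and 1320 to 1421 lower genes, and at least 2-fold 965 to 1050 and 610 to 668. Over 263 named genes and the alternatives, 3515 of 3654 log2 fold changes kept direction and side of the threshold, 81 (20 genes) lost the call, 38 (18 genes) gained it and 20 (11 genes) changed sign, all of them leaving out 1 library. The lost calls of genes not discussed above belong to Atf5, Atp5a1, Atp5b, Herpud1, Hspd1, Hspe1 and Ndufs1. The cause of these changes was not tested. None of the genes that changed sign was called, and their ranges over the 6 fits without a library were -0.05 to 0.16 for Bag3, -0.28 to 0.30 for Cd163, -0.15 to 0.25 for Cd36, -2.06 to 0.00 for Clec9a, -0.30 to 0.02 for Ctsl, -0.27 to 0.07 for Ephx1, -0.18 to 0.03 for Hsph1, -0.03 to 0.15 for Mmp19, -0.10 to 0.48 for Rtp4, -2.92 to 0.13 for S100a9 and -0.02 to 0.08 for Trem2. With the block and only the 6 libraries, Blvra, Ccl2, Fkbp4, Il7r, Jak1, Ltf, Mcm2, Mcm3, Mcm4, Mki67, Myc, S100a9, Siglec1 and Slc39a10 also passed (adjusted p = 0.000362 to 0.0488). List counts of 1 or 2 members, such as those of LXR targets, glycolysis, metal-binding, stress response, megakaryocyte, neutrophil and stromal genes, moved by 1 or 2 when a library was left out or the block was used. Counts of 3 or fewer over a group give wide intervals, and the least deep of the 6 libraries held 9819362 counts.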

Other observations

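Among called genes of at least 300 CPM that stood on no list, a few were chosen for naming after their values were seen. Clec4d, a lectin receptor of myeloid cells, had 1277, 1661 and 1492 CPM with heme-albumin, against 160.0, 206 and 222 CPM with IL-4 and 514, 521 and 512 CPM in untreated cells (2.91 ± 0.48, adjusted p = 0.000354). The aldo-keto reductase Akr1b8 had 585, 766 and 616 CPM with heme-albumin, against 53.8, 70.5 and 67.8 CPM with IL-4 and 137, 126 and 145 CPM in untreated cells, with every heme-albumin library above all others (3.35 ± 0.19, adjusted p = 4.39e-08). Ugt1a1, the enzyme that conjugates bilirubin, the end product of heme breakdown, was at 447 ± 43.9 CPM with heme-albumin, 104 ± 13 CPM with IL-4 and 141 ± 5.7 CPM in untreated cells (2.10 ± 0.15, adjusted p = 2.6e-07). The last exons of Ugt1a1 are shared with its neighbours in the locus, among them Ugt1a9 at 447 ± 43.9 CPM with heme-albumin and 104 ± 13 CPM with IL-4, so the counts cannot be assigned to 1 of them. Pla2g7, a secreted phospholipase that breaks down platelet activating factor, was at 876 ± 402 CPM with heme-albumin, 132 ± 11.2 CPM with IL-4 and 117 ± 26.3 CPM in untreated cells (2.73 ± 0.59, adjusted p = 0.00271). Cyb5a, an electron carrier of the endoplasmic reticulum, and Glul, which makes glutamine from glutamate and ammonia, were higher as well (2.25 ± 0.24, adjusted p = 9.4e-06 and 2.11 ± 0.25, adjusted p = 2.79e-05), and so were the superoxide dismutase Sod1 (1.89 ± 0.10, adjusted p = 3.75e-08) and Cybb, the catalytic chain of the phagocyte oxidase (1.51 ± 0.37, adjusted p = 0.00608). The complement receptor C5ar1 was at 1241 ± 293 CPM with heme-albumin, 420.1 ± 139 CPM with IL-4 and 1523 ± 60.7 CPM in untreated cells (1.56 ± 0.34, adjusted p = 0.00285). The actin regulator Coro1a was at 490.2 ± 18.9 CPM with heme-albumin, 65.2 ± 14.1 CPM with IL-4 and 334 ± 26.4 CPM in untreated cells (2.91 ± 0.27, adjusted p = 2.72e-06).

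On the IL-4 side, Atp6v0a1, a subunit of the same proton pump as Atp6v0d2, had 269.9, 267 and 260.5 CPM with heme-albumin, against 1682, 1765 and 1695 CPM with IL-4 and 312, 301 and 332 CPM in untreated cells. IL-4 libraries stood apart above both other groups (-2.69 ± 0.14, adjusted p = 2.75e-08). The ubiquitin ligase Cblb, which restrains immune receptors, was at 22.2 ± 2.22 CPM with heme-albumin, 358 ± 19.5 CPM with IL-4 and 67.8 ± 2.99 CPM in untreated cells (-4.01 ± 0.14, adjusted p = 9.55e-10). The DNA methyltransferase Dnmt3a (-2.51 ± 0.13, adjusted p = 1.9e-08), the secretory kinase Fam20c (-2.82 ± 0.44, adjusted p = 0.000252) and the chemokine Ccl6 (-2.26 ± 0.47, adjusted p = 0.00222) were lower with heme-albumin too. The aminopeptidase Anpep (CD13) had 271, 471 and 272 CPM with heme-albumin, against 1406, 1477 and 1434 CPM with IL-4 and 675, 755 and 699.6 CPM in untreated cells (-2.09 ± 0.27, adjusted p = 5.06e-05).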
